A study of Homo sapiens with 40 samples.

Results

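The TGF-beta signalling genes described here were SMAD2, SMAD3, SMAD4, SMAD6, SMAD7, TGFBR1, TGFBR2, SKI and SKIL. These 9 genes were chosen by name from 62486 gene identifiers in the RNA-seq table, together with the ChIP-seq peaks of 5 marks in a 250 kb window that holds SMAD3, chr15:67300000-67550000 on GRCh37 (hg19). The window was chosen from the data, since it held the widest H3K27ac peak of both genotypes, so H3K27ac there is described without a test. It held 64 of 614567 deposited peaks. All 9 genes passed the filter on low counts and were among the 17767 genes tested.

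TGF-beta, activin and BMP ligands bind pairs of type II and type I receptor kinases at the cell surface, and the activated type I receptor phosphorylates a receptor SMAD. SMAD2 and SMAD3 then bind SMAD4 and act on chromatin in the nucleus, where SKI and SKIL (SnoN) hold back their activity, while SMAD6 and SMAD7 are feedback inhibitors. In epithelial cells the pathway is known for growth arrest and for epithelial-mesenchymal transition, and in lung tumours for both restraining and promoting roles.

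The series compared A549, an established human lung adenocarcinoma line obtained from ATCC, with A549 cells carrying a CRISPR/Cas9 disruption of SETDB1 made through the PX458 plasmid (KO). SETDB1 is a histone methyltransferase that writes H3K9me3, a mark of repressed chromatin. The labels do not say whether the KO cells were 1 clone or a pool, nor what the control cells received, and no TGF-beta or inhibitor treatment is named for any group. RNA-seq had 3 libraries per genotype, each ChIP-seq mark (H3K27ac, H3K4me3, H3K27me3, H3K9me3 and CTCF) 2 per genotype, and Hi-C 2 per genotype. Nothing in the labels says that libraries came from separate cultures, so p-values measure only the spread between these libraries, which may be technical.

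RNA-seq libraries held 18065062 to 48364919 counts. SETDB1 itself stood at 38.5 ± 1.04 CPM (counts scaled to library size; mean and SD, n = 3) in control and fell to 21.9 ± 1.32 CPM in KO libraries, with a log2 fold change of -0.82 (edgeR adjusted p 1.7e-12). All 5 epithelial markers (EPCAM, CDH1, KRT8, KRT18, KRT19) were present and called higher in KO (edgeR adjusted p under 0.05), as were 32.8% of all genes tested. Their summed level was 2990 to 3266 CPM in control and 9194 to 9925 CPM in KO libraries. Fibroblast markers summed to 3.22 to 3.35 CPM in control and 3.96 to 4.4 in KO, nearly all from COL1A1, with COL1A2 and DCN at 0. Immune markers summed to 5.51 to 5.84 and 4.01 to 5.34 CPM, nearly all from CD14, with CD3E at 0. Of 4 endothelial markers 3 were measured, and they summed to 0.276 to 0.411 CPM in control and 3.97 to 5.27 in KO libraries, nearly all from CDH5. The part of these shifts in the results below was not tested, and in bulk RNA fewer expressing cells cannot be told apart from less RNA per cell.

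Promoter sequences are shown for the gene with the largest difference (TGFBR2), for SMAD3, and for SMAD6, the only one of them to hold the palindrome that SMAD3 and SMAD4 bind. Each is the 250 bases before the first-listed RefSeq start on GRCh38.p14, on the plus strand. Capitals mark matches to GTCTAGAC (the palindrome), CAGAC or GTCTG (a shorter element that the palindrome does not contain), and GGCGC or GCGCC (a GC-rich SMAD element).
TGFBR2, chr3:30606106-30606355: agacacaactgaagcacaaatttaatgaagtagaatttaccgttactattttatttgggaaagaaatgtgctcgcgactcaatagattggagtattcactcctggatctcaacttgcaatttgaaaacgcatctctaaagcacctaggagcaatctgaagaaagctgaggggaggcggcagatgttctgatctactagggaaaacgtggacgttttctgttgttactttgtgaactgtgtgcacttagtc
SMAD3, chr15:67065352-67065601: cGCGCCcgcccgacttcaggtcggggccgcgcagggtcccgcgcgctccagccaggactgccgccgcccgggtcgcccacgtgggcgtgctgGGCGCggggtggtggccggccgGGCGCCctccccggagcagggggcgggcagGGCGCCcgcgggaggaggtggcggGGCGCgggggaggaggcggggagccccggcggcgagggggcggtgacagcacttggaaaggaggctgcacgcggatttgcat
SMAD6, chr15:66701986-66702235: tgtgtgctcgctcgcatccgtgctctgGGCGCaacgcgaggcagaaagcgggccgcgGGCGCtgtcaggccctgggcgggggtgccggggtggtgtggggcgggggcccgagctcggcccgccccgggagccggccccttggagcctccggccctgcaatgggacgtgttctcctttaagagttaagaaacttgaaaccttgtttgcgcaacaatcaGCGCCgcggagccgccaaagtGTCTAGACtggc
The SMAD6 palindrome began 12 bases before the start, and GTCTAGAC was found in 0.182% of 35116 promoter windows of that length. The SMAD3 window held 7 matches to GGCGC or GCGCC, some of them overlapping, had a GC content of 80.8% and held no CAGAC or GTCTG. The TGFBR2 window held none of the 3 motifs on either strand and had a GC content of 40.8%, against a median of 58.0% over all windows. Of 9 genes, 8 had windows in the RefSeq table, 23 starts in all, of which 9 held CAGAC or GTCTG and 10 held GGCGC or GCGCC, against 38% and 44.5% of all windows. A match is a run of letters and not a measured binding site.

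The first question was which steps of the pathway differed in transcript level between the genotypes. The receptors moved apart: TGFBR2, the type II receptor that binds TGF-beta, rose 2.26-fold in KO, and TGFBR1, the type I receptor that it activates, fell to 0.664 of its control level. The signal-carrying SMADs differed less, with SMAD2 lower and with no difference that passed the test for SMAD3 or SMAD4. The nuclear repressors also split, with SKI higher and SKIL lower. In all, 6 of the 9 genes passed an adjusted p of 0.05 (edgeR's quasi-likelihood test, Benjamini-Hochberg over all genes tested), 3 higher and 3 lower, which is 66.7%. Over all 17767 genes tested the share was 62.8%, with 32.8% higher and 30.0% lower, so the share among the 9 lay near the background.

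**Figure D1:**
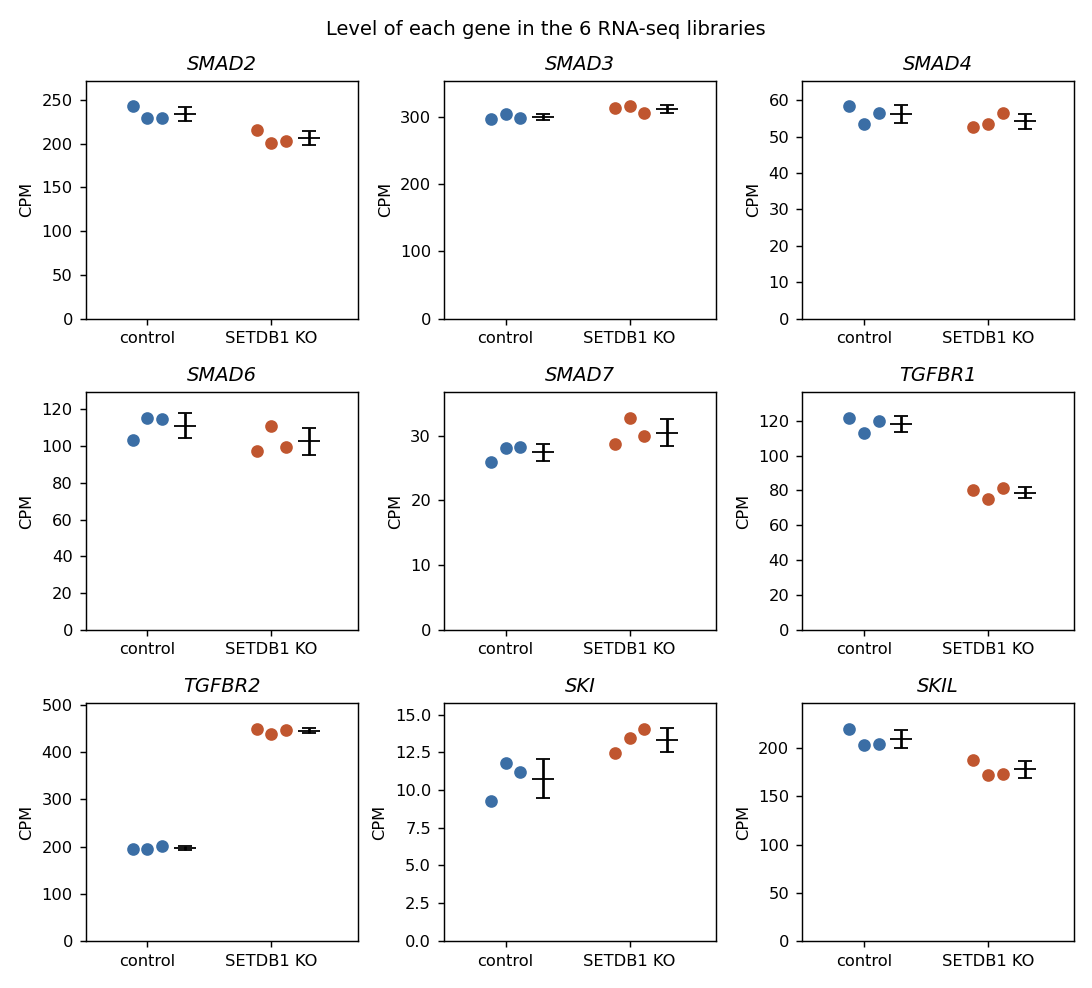
Level of each of the 9 genes in CPM (linear axis from 0) in the 3 control libraries (blue) and 3 SETDB1 KO libraries (orange), with the mean and SD in black beside each group. TGFBR2 sits between 194 and 201 CPM in control and between 439 and 449.6 CPM in KO libraries, TGFBR1 is lower in every KO library, and SMAD4 and SMAD6 overlap between genotypes.

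TGFBR2 (ENSG00000163513, chromosome 3) was measured at 194, 196 and 201 CPM in control and 449.6, 439 and 448 CPM in KO libraries. The groups lay far apart, and each was tight, at 197 ± 3.65 CPM and 446 ± 5.42 CPM (SD, n = 3). The log2 fold change was 1.18 (SE 0.040), with a 95% interval of 1.10 to 1.26 and an edgeR adjusted p of 5.77e-20. TGFBR2 was the only one of the 9 with a called difference of at least 2-fold, where 14.7% of all genes tested had one, and 11.8% of genes had a larger absolute change.

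TGFBR1 (ENSG00000106799, chromosome 9) was measured at 122, 113 and 120.0 CPM in control and 80.2, 74.9 and 81.2 CPM in KO libraries. All 3 KO libraries were lower than the control libraries. The log2 fold change was -0.59 (SE 0.047), with a 95% interval of -0.69 to -0.49 and an edgeR adjusted p of 1.16e-11.

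The opposite directions changed the balance of the receptor transcripts. The ratio of TGFBR2 to TGFBR1 counts, in which gene length cancels between genotypes, was 1.59, 1.73 and 1.68 in control and 5.61, 5.87 and 5.52 in KO libraries. The ratios of the genotypes did not overlap, and the mean ratio was 3.4 times higher in KO. An exact two-sided permutation test gave p = 0.1, the smallest that 3 against 3 libraries allow, and also 0.1 after Benjamini-Hochberg adjustment over the 3 ratios computed.

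Among the receptor SMADs, SMAD2 (ENSG00000175387, chromosome 18) stood at 242, 229.5 and 229 CPM in control and 216, 201 and 203 CPM in KO libraries. The groups did not overlap, and the change was small (log2 fold change -0.18, SE 0.043, edgeR adjusted p 5.99e-04). SMAD3 (ENSG00000166949, chromosome 15), which like SMAD2 carries TGF-beta and activin signals, stood at 297, 304 and 298 CPM in control and 314, 315 and 305 CPM in KO libraries. All 3 KO libraries lay above the control libraries, yet by a margin that did not pass the test, with a log2 fold change of 0.06 (SE 0.039), a 95% interval of -0.02 to 0.14 and an edgeR adjusted p of 0.219 (0.0603 to 0.655 over the alternatives). The gene with the widest H3K27ac peak in both genotypes therefore had a transcript difference of at most 0.14 on the log2 scale by that interval, and 90.4% of genes tested had a larger absolute change.

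The ratio of SMAD2 to SMAD3 counts was 0.817, 0.755 and 0.770 in control and 0.688, 0.637 and 0.664 in KO libraries. The ratio was lower in every KO library, with an exact permutation p of 0.1 (two-sided), again the smallest possible. SMAD4 (ENSG00000141646, chromosome 18), the shared partner of all receptor SMADs, was measured at 58.3, 53.5 and 56.6 CPM in control and 52.6, 53.5 and 56.5 CPM in KO libraries. The genotypes overlapped for SMAD4, and the difference did not pass the test, with a log2 fold change of -0.05 (SE 0.051), a 95% interval of -0.16 to 0.05 and an edgeR adjusted p of 0.37.

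The inhibitory SMADs gave the least settled values. SMAD7 (ENSG00000101665, chromosome 18), which recruits ubiquitin ligases to the TGF-beta receptor, was measured at 25.9, 28.1 and 28.2 CPM in control and 28.6, 32.8 and 30.0 CPM in KO libraries. Every KO library lay above the control libraries, the closest by 28.6 against 28.2 CPM, and the log2 fold change was 0.16 (SE 0.063, edgeR adjusted p 0.027). This call was lost without control replicate 1 (edgeR adjusted p 0.0859) and without KO replicate 2 (0.254), and with DESeq2 or upper quartile scaling.

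SMAD6 (ENSG00000137834, chromosome 15), which acts mainly on the BMP branch, was measured at 103, 115 and 115 CPM in control and 97.2, 111 and 99.5 CPM in KO libraries. The genotypes overlapped, with control replicate 1 below KO replicate 2, and the log2 fold change of -0.11 (SE 0.054) did not pass the test at an edgeR adjusted p of 0.0797. It passed without control replicate 1 (-0.16, edgeR adjusted p 0.00478) and without KO replicate 2 (-0.17, 0.00986).

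Of the nuclear repressors, SKI (ENSG00000157933, chromosome 1) was measured at 9.29, 11.8 and 11.2 CPM in control and 12.5, 13.4 and 14.1 CPM in KO libraries. The KO libraries were all higher, control replicate 1 was the lowest library, and the log2 fold change was 0.32 (SE 0.087, edgeR adjusted p 2.55e-03). SKIL (ENSG00000136603, chromosome 3), a relative of SKI that is also induced by TGF-beta, was measured at 220.3, 203 and 205 CPM in control and 188, 173 and 173 CPM in KO libraries. Here every KO library was lower (log2 fold change -0.24, SE 0.045, edgeR adjusted p 5.47e-05). The ratio of SKIL to SKI counts went from 19.8 ± 3.47 to 13.4 ± 1.49 (SD, n = 3; exact permutation p 0.1, two-sided), with no overlap between the genotypes.

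**Figure D2:**
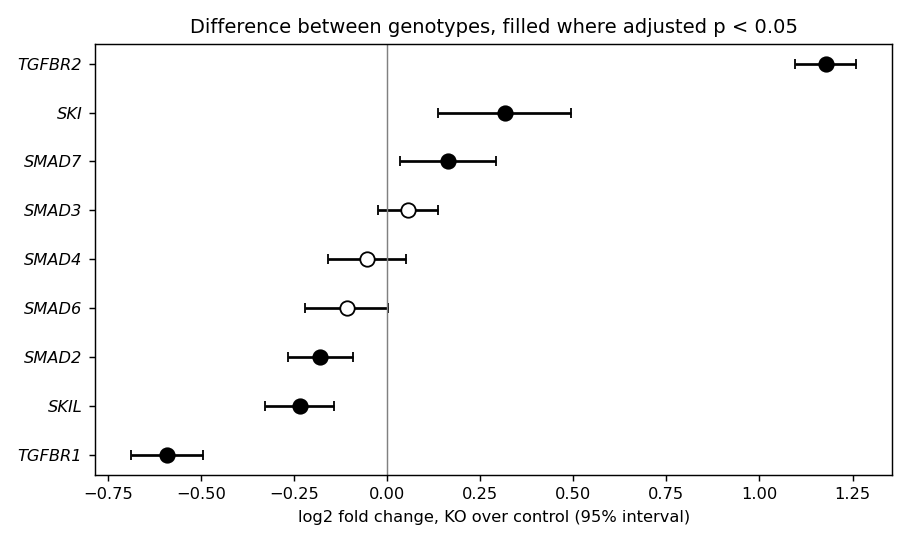
Log2 fold change of each gene, KO over control, from edgeR's quasi-likelihood fit, with its 95% interval and filled symbols where the adjusted p was under 0.05. TGFBR2 lies at 1.18 and TGFBR1 at -0.59, and the other 7 genes lie between -0.24 and 0.32.

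For 7 of the 9 genes the CPM of the genotypes did not overlap, against 65.8% of all genes tested. The median log2 fold change of the 9 was -0.05, beside a median of 0.0038 over all genes tested. The chromosomes that hold them had medians of -0.03 (chromosome 1), -0.06 (chromosome 3), 0.02 (chromosome 9), -0.04 (chromosome 15) and -0.01 (chromosome 18), so TGFBR2 and SKIL moved in opposite directions on the same chromosome. The libraries were made with a stranded kit, but the strand setting of the counting is not given in the sources used here, so reads of a gene and of an antisense transcript over it cannot be told apart.

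Chromatin was then compared over the SMAD3 window. H3K27ac, a mark of active promoters and enhancers, covered nearly the same bases in both genotypes, and the KO cells differed mainly in where the deposited list breaks the domain into peaks. H3K4me3, a promoter mark that can spread into wide domains at highly expressed genes, also lay almost in the same places. H3K9me3 was listed in small peaks in control cells and in none in KO cells. H3K27me3 was listed in neither, and CTCF in a single KO peak. Every list is 1 per mark and genotype, so these values have no replicate error.

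**Figure D3:**
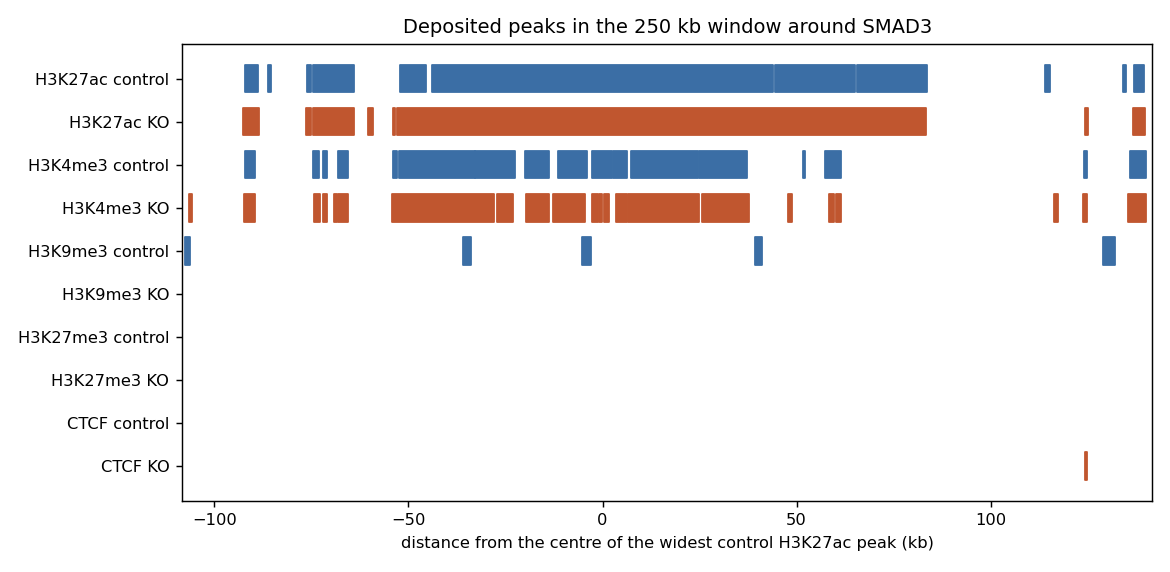
Deposited peaks of each mark and genotype (blue control, orange KO) along the 250 kb window, as distance in kb from the centre of the widest control H3K27ac peak. The H3K27ac and H3K4me3 blocks of the genotypes lie over each other, 5 narrow H3K9me3 peaks appear in control only, and the H3K27me3 rows are empty.

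The widest H3K27ac peak of control cells ran over chr15:67364443-67452220, 87.8 kb, ahead of the second widest at 58.9 kb. The widest of KO cells ran over chr15:67355429-67491749, 136.3 kb, ahead of 71.2 kb for the second widest. The KO peak thus started 9.0 kb earlier, ended 39.5 kb later and was 1.55 times as wide. It lay over 4 control peaks of 6.8, 87.8, 20.6 and 18 kb, separated by 3 gaps of 474 to 1488 bp. Those control peaks covered 97.6% of the KO peak, and the gaps held 2.6 kb.

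Joining peaks less than 1 kb apart brought the widths to 127.5 kb in control and 137.4 kb in KO, a ratio of 1.08, and both remained the widest of their lists, ahead of 104.8 and 124.1 kb. Wider peaks in KO were not seen at this place alone. Of the 20 widest control peaks as deposited, 8 had a KO peak over them that was wider by rounded width, the SMAD3 peak included. The control peak at chr19:39164460-39218947 was not counted. Its KO peak, chr19:39164458-39218967, was also 54.5 kb after rounding, though slightly wider by position. Of the 20 widest KO peaks as deposited, 2 had a wider control peak over them. Each set was picked by its own width, and gaps were not joined for these counts.

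**Figure D4:**
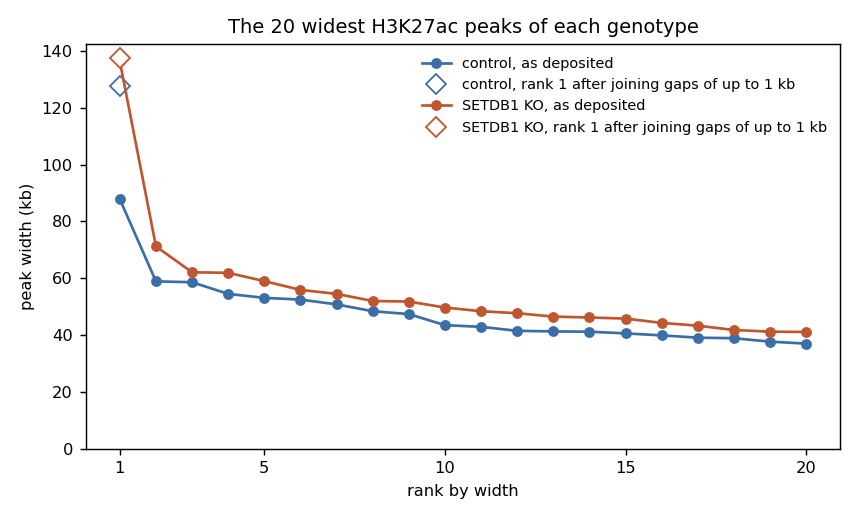
Width in kb of the 20 widest H3K27ac peaks of each genotype by rank (control blue, KO orange), with diamonds for the widest after peaks less than 1 kb apart were joined. The SMAD3 peak is the first point of each line, at 87.8 and 136.3 kb as deposited and at 127.5 and 137.4 kb after joining.

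H3K27ac covered 154.1 kb (61.65%) of the window in control and 157.8 kb (63.11%) in KO, in 11 and 8 peaks. Of this, 151.2 kb was covered in both, which is 98.1% of the control and 95.8% of the KO length. Without a partner in the other genotype were 3 of 11 control peaks and 3 of 8 KO peaks, where 26.9% and 31.3% of all H3K27ac peaks lacked one. All 6 were narrow, at 0.5 to 1.5 kb.

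H3K4me3 did not itself choose the window, but in control it covered 83.5% of the widest H3K27ac peak. Its rank among windows is therefore not independent of the choice and is description only. H3K4me3 covered 100.1 kb (40.04%) in control and 100.7 kb (40.26%) in KO, in 17 and 22 peaks. Of 12123 windows of that length along the genome, 0.0412% in control and 0.0495% in KO were covered by H3K4me3 as much or more. The shared length was 92.4 kb, 92.3% of the control and 91.8% of the KO length. Without a partner were 1 of 17 control peaks, where 14.9% of all control peaks lacked one, and 4 of 22 KO peaks, where 30.2% did. The widest H3K4me3 peak was 19.6 kb in control and 26.3 kb in KO.

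Inside the bases of the wide KO H3K27ac peak, H3K4me3 covered 63.4% in control (10 peaks) and 61.4% in KO (13 peaks). The wide H3K4me3 stretches lay in its first part, up to chr15:67445625 in control and chr15:67446033 in KO, and past that point the peaks listed within it were at most 4.1 kb.

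H3K9me3, the mark that SETDB1 writes, was listed in 5 control peaks of 1.2 to 2.9 kb, 10.3 kb or 4.13% of the window, and in no KO peak. Of all control H3K9me3 peaks 60.0% had no KO peak over them, and 64.3% of windows of this length were covered at least as much in control, so this coverage lay in the lower part of the control range. In KO, 46.1% of windows held no H3K9me3 peak, against 10.1% in control. Yet the KO list covered more of the length of all windows, 20.6% against 11.3%. It did so in fewer peaks, 53949 against 102976, of a larger median width, 4423 against 2303 bp. The cause of the absence here was not tested. Inside the wide H3K27ac peak lay 3 of the control peaks, chr15:67372399-67374469, chr15:67403117-67405401 and chr15:67447583-67449413, and they held 6.2 kb. Their bases were listed as H3K27ac in both genotypes. The nearest KO H3K9me3 peaks lay 23.9 kb before and 1188.3 kb after the window, while in control they lay 7.9 and 16.0 kb away.

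No H3K27me3 peak, the Polycomb mark, fell in the window in either genotype, as for 35.8% of windows in control and 37.2% in KO. The nearest lay 17.4 kb before and 29.3 kb after in control, and 15 and 30 kb in KO. CTCF, a protein found at many loop anchors and domain edges, had no control peak in the window and 1 KO peak of 302 bp at chr15:67532603-67532904. Of all KO CTCF peaks 61.4% had no control peak over them.

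Hi-C placed the window inside a single topologically associating domain in each genotype. The control domain ran over chr15:67160001-67740000 (580 kb) and the KO domain over chr15:67180001-67620000 (440 kb), against a median of 300 kb in both lists. The start differed by 1 bin of 20 kb, whereas the KO end lay nearer to the window. Control cells had 2 CTCF peaks inside the domain and KO cells 6, from lists of 23903 and 34474 CTCF peaks. Within 1 bin of the edges, control cells had 3 CTCF peaks at the start and 1 at the end, and KO cells 2 and 0.

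The deposited compartment score, in bins of 100 kb, was positive in all 3 bins of the window in every replicate. In the bin from 67300001 it was 0.429 and 0.499 in control and 0.495 and 0.50 in KO replicates, which overlap, with an adjusted p of 0.564 in limma. The bin from 67400001 had 0.392 and 0.419 against 0.476 and 0.468 (limma adjusted p 0.218), without overlap. The bin from 67500001, past the wide H3K27ac peak, had 0.355 and 0.337 against 0.450 and 0.457, a difference of 0.108 (SE 0.044, limma adjusted p 0.0474). That was 1 of 3 bins called, where 59.0% of 26496 bins were, 21.4% with a higher and 37.6% with a lower score in KO. The call was lost when any of the 4 replicates was left out (limma adjusted p 0.0595 to 0.18) and with scaled columns (0.11).

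Genes beside SMAD3 in the RefSeq order did not share a direction. Before it, ZWILCH, a kinetochore protein, fell from 86.3, 82.5 and 87.2 CPM to 48.5, 46.2 and 48.8 CPM, a log2 fold change of -0.84 (edgeR adjusted p 1.02e-14), and LCTL had one of -0.73 (0.00815) at 0.709 to 1.54 CPM, a call that was lost with DESeq2, without control replicate 3 and without KO replicate 2. SMAD6 is the nearest protein-coding gene before SMAD3. After it, AAGAB fell slightly (-0.17, edgeR adjusted p 0.0019), IQCH had a log2 fold change of 0.11 that did not pass (0.428), and C15orf61 rose (0.47, 6.86e-04).

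Among the tested genes whose pattern over the 6 libraries was most like that of SMAD3 were NKIRAS2, ELOA, CASP2 and TNKS2. The root mean square difference of their centred log2 CPM from that of SMAD3 was 0.0041, 0.011, 0.012 and 0.014. Such a flat pattern is common, since 3017 genes lay within 0.1 of SMAD3.

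The other genes of the TGF-beta and BMP pathways were taken as 12 lists of 106 genes, of which 86 were tested. Of these, 32 were higher and 33 lower in KO, 75.6% in all against the 62.8% of all genes tested, and 17 differed at least 2-fold, where 14.7% of all genes tested did. The median over the 86 was 0.010. The counts include BMP2 and SNAI2, which passed the filter on low counts only through the KO libraries where they are high, so their calls are not read as results. The deepest falls were those of the secreted antagonists FST and GREM1, while among SMAD anchors and genes of SMAD and receptor turnover the largest absolute value was that of UCHL5, at -0.53. The 20 genes that were not tested include INHBA, NODAL, NOG, CHRD and CDKN2B.

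**Figure D5:**
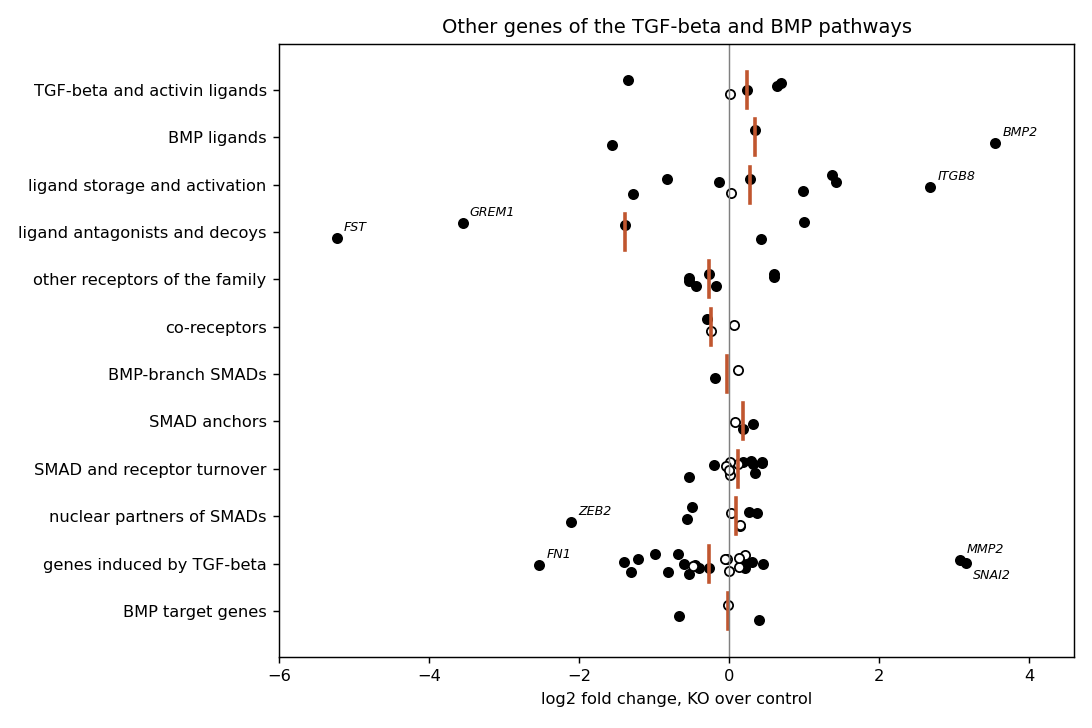
Log2 fold change, KO over control, of 86 tested genes in 12 pathway lists, filled where the edgeR adjusted p was under 0.05, with an orange bar at the median of each list. Genes with an absolute value of at least 2 are named; FST at -5.23 and GREM1 at -3.56 lie farthest to the left, and among SMAD anchors and turnover genes UCHL5 lies farthest from 0, at -0.53.

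Of 5 TGF-beta and activin ligands tested, 3 were higher and 1 lower, 80% against 62.8% of all genes, with a list median of 0.23. INHBB, an activin subunit, fell from 118, 128 and 129 CPM to 47.5, 50.5 and 49.0 CPM, with no overlap (log2 fold change -1.35, SE 0.049, edgeR adjusted p 2.45e-19). TGFB3 (0.69) and GDF11 (0.64) were higher at low levels, 1.79 and 11.0 CPM in KO. Among the BMP ligands, BMP6 fell from 7.67 ± 1.28 to 2.50 ± 0.30 CPM (-1.56) and BMP4 rose slightly (0.34), while 3 of the 6 listed were not tested. BMP2, named outside the rule after its values were seen, had 2, 3 and 4 counts in control and 37, 83 and 26 in KO libraries.

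TGF-beta is secreted in a latent form held by some of the LTBP proteins and freed in part by integrins. Of 9 genes of storage and activation tested, 5 were higher and 3 lower, 88.9% against 62.8% of all genes (median 0.27). ITGB8, the beta-8 integrin subunit that binds latent TGF-beta, rose from 8.86, 9.04 and 9.19 CPM to 61.0, 56.8 and 56.1 CPM (log2 fold change 2.68, SE 0.065, edgeR adjusted p 2.57e-23). Its partner ITGAV, which also pairs with other beta subunits, fell from 361 ± 4.75 to 203 ± 10.9 CPM (-0.83). Of the LTBP genes, LTBP2 and LTBP3 rose, with log2 fold changes of 1.42 and 1.37. Both named outside the rule, LTBP4 was also higher (0.27) and LTBP1 slightly lower (-0.13, edgeR adjusted p 0.0432). Also named outside the rule, ITGB6, the other beta subunit in the list, fell from 2.76 to 1.15 CPM (-1.28, edgeR adjusted p 3.8e-07). ITGB8 thus moved in the opposite direction to its partner ITGAV and to ITGB6.

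Of the ligand antagonists and decoys all 5 tested differed, where 62.8% of all genes did, 2 higher and 3 lower, with a median of -1.39. FST, follistatin, which traps activins, fell from 28.4, 28.1 and 25.3 CPM to 0.523, 0.689 and 0.979 CPM. Its KO libraries held 12, 34 and 22 counts, and its log2 fold change was -5.23 (SE 0.12, edgeR adjusted p 1.63e-23). GREM1, which traps BMPs, fell from 31.4, 32.9 and 31.0 CPM to 2.96, 2.53 and 2.71 CPM (-3.56, SE 0.087, edgeR adjusted p 2.49e-23). FSTL1 fell as well (-1.39), whereas FSTL3, an activin antagonist like FST, rose from 68.2 ± 6.72 to 91.3 ± 4.99 CPM (0.42). The decoy receptor BAMBI, also named outside the rule, rose (0.99). The antagonist list therefore held both the deepest fall of the pathway and 2 increases.

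All 7 other receptors of the family that were tested differed, where 62.8% of all genes did, 2 higher (32.8% of all genes) and 5 lower (30.0%), none by 2-fold. The activin type I receptor ACVR1B (0.60) and the BMP type I receptor BMPR1B (0.59) rose. The type I receptor ACVR1 fell (-0.54), and so did BMPR2, the BMP type II receptor, from 117 ± 5.51 to 80.4 ± 4.98 CPM (-0.54). TGFBR2 thus rose while the type II receptor of the BMP branch fell. Of 3 co-receptors, TGFBR3 (betaglycan) was lower (-0.30) and the only one called, 33.3% against 62.8% of all genes. CD109, with a log2 fold change of 0.06, did not pass (edgeR adjusted p 0.305).

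Inside the cell, SMAD5 of the BMP branch was lower (-0.19) and SMAD1, also named outside the rule, had a log2 fold change of 0.12 that did not pass. Of 3 anchors that present SMADs to receptors, 2 differed, both higher, 66.7% against 62.8% of all genes. They were ZFYVE9 (SARA) at 0.31 and HGS at 0.18. The HGS call was lost without control replicate 1, without any of the 3 KO libraries, and under upper quartile scaling. Of 13 genes of SMAD and receptor turnover, 6 were higher and 2 lower, 61.5% against 62.8% of all genes. The ubiquitin ligase STUB1 (0.44) and the deubiquitinase USP11 (0.43) rose, while the deubiquitinase UCHL5 (-0.53) and the ligase ITCH (-0.21) fell. Of 8 nuclear partners tested, 3 were higher and 3 lower, 75% against 62.8% of all genes. ZEB2, a repressor linked to epithelial-mesenchymal transition, fell from 8.99, 9.31 and 8.30 CPM to 1.87, 1.94 and 2.40 CPM (-2.11, SE 0.12, edgeR adjusted p 8.71e-15), and ZEB1 (-0.49) and the corepressor TGIF1 (-0.56) fell by less.

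Of 25 tested genes known to be induced by TGF-beta, 12 were lower (30.0% of all genes were), 6 higher (32.8%) and 7 did not pass, with a median of -0.27. FN1, fibronectin, fell from 486, 475 and 452 CPM to 83.9, 78.5 and 81.5 CPM (log2 fold change -2.54, SE 0.045, edgeR adjusted p 2.32e-26). TGFBI, a secreted matrix protein, fell from 638 ± 8.03 to 419 ± 14.1 CPM (-0.61). In the other direction, MMP2, a gelatinase, rose from 1.14, 0.771 and 1.23 CPM to 9.02, 9.62 and 8.54 CPM (3.07, SE 0.14, edgeR adjusted p 1.02e-16). SNAI2, a transcription factor of epithelial-mesenchymal transition, had 9, 3 and 10 counts in control and 80, 126 and 57 counts in KO libraries. The 6 higher genes include SNAI2, whose call is not read as a result. With SNAI2 set aside, genes grouped by their response to TGF-beta elsewhere still moved both ways here. Of 3 BMP target genes tested, ID1 rose (0.40) and ID2 fell (-0.67), 66.7% called against 62.8% of all genes.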

How the data were processed

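RNA-seq gene counts, ChIP-seq peak lists, TAD lists and a Hi-C compartment table were used as deposited; input libraries were not used here. The deposited counts are whole numbers per Ensembl gene, made by the authors; the labels name a stranded total RNA kit. The deposited compartment score is a signed score per 100 kb bin and replicate, whose method is not given in the sources used here. Peak and TAD lists hold positions only. STAR 2.6.1c, edgeR 3.30.0, Bowtie2 2.2.3, SAMtools 1.5, Picard, MACS2 and hg19 are named in the submitters' processing notes, with no role given. Groups came from titles; for KO H3K4me3 the description was used, since a digit is missing from another label.

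Symbols were found for 93.85% of gene IDs. In edgeR 4.0.16 (R 4.3.3) counts were filtered with filterByExpr, scaled by TMM and fitted with genotype alone by the robust quasi-likelihood method, with Benjamini-Hochberg adjustment over 17767 genes. CPM used TMM-scaled library sizes, and SE and 95% intervals came from the same fit. Transcript lengths were not used, so CPM shows no order of levels between genes; it served only to choose genes to name. Bins were fitted with limma 3.58.1 on the replicate columns. Peaks were compared in Python 3.11.15 with pandas 2.3.3, at an overlap of at least 1 bp. Both fits were tested on simulated data. Within a genotype, all pairs of RNA-seq libraries differed by more than sampling noise (chi-square per degree of freedom 1.66 to 6.70). Promoter sequences and gene order came from RefSeq tables on GRCh38.p14, which were not aligned to the hg19 peaks.

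Named were SETDB1, the 9 genes, the 3 protein-coding genes on each side of SMAD3, the 5 genes most like SMAD3 in pattern (1 of them is not reported here), and in each list the gene with the highest mean CPM and up to 3 with the largest change, an adjusted p under 0.05, a mean CPM of at least 1 and at least 10 counts in the lower group. The members and lists were chosen with earlier results of these data known. Alternatives were upper quartile scaling, library size only, DESeq2 1.42.0, limma voom, no filter, mitochondrial genes left out, a replicate block, each library left out, chromosome medians subtracted, and other peak, window and score rules.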

Additional observations from a re-analysis of the deposited data

How the results depend on the processing

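Of 903 values under alternatives, 855 stayed within their limits. The fit with mitochondrial genes left out gave nearly the values of the fit without control replicate 1. For SKI these were 0.220 and 0.224, beside 0.316 in the main fit. That setting appears to lack control replicate 1 as well and is not read as a separate check. Among the 9 genes, the calls of SMAD2, TGFBR1, TGFBR2, SKI and SKIL and the missed calls of SMAD3 and SMAD4 held under every alternative run. SMAD7 did not pass under upper quartile scaling (0.13, adjusted p 0.081), DESeq2 (0.16, 0.0775) or with mitochondrial genes left out (0.12, 0.0991), and its log2 fold change ranged from 0.10 to 0.21 when 1 library was left out. SMAD6 passed under upper quartile scaling (-0.14, adjusted p 0.0231) and with mitochondrial genes left out (-0.16, 0.00458), and ranged from -0.17 to -0.066 when 1 library was left out. Minus the median of its chromosome, TGFBR2 was at 1.24 and SKIL at -0.17. The cause was not tested.

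The labels name no pairing by replicate number, and the main fits used none. In RNA-seq, deviations with the same number correlated weakly, at 0.111, 0.0641 and 0.0467 (2 of 3 numbers matched best with their own). In Hi-C they correlated at -0.00185. These values do not settle whether the RNA-seq libraries were paired. With the replicate block, SMAD6 passed (-0.11, edgeR adjusted p 0.00436), no other call among the 9 genes changed, 11655 genes were called in all, and the third compartment bin missed the threshold (0.108, limma adjusted p 0.0505).

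Widening the window by 50 kb on each side gave an H3K27me3 coverage of 1.38% in control and 2.04% in KO, and an H3K9me3 coverage of 6.47% and 0.33%. Keeping the wider 50% of each list gave 1.18% for control H3K9me3. The third bin missed the threshold with scaled columns (0.119, adjusted p 0.11) and ranged from 0.099 to 0.117 when 1 replicate was left out. The first bin, not called, ranged from -0.0019 to 0.069, and its sign turned (-0.0019) without control replicate 1. No replicate check exists for peaks and TADs, and with 3 libraries per genotype a difference as small as the SE of a gene is not resolved.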
